A study of Mus musculus with 8 samples.

Results

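The genes of sterol and fatty acid synthesis were described in peritoneal macrophages lacking Ptpn1, the gene of the tyrosine phosphatase PTP1B, and in wild-type cells. The set holds 37 genes, chosen by name from the enzymes of mevalonate and sterol synthesis, the SREBP system that controls them, and the enzymes that make, lengthen and desaturate fatty acids. All 37 were among the 11996 rows of the deposited table, each on 1 row, and all 37 passed the filter on low values that kept 11400 genes. Macrophages of C57BL/6 mice were elicited into the peritoneum with thioglycolate, an irritant, and left to adhere to plastic for 24 h. The 4 groups were Ptpn1-/- cells given IL-10 at 100 ng/ml for 4 h, mock-treated Ptpn1-/- cells, wild-type cells given the same IL-10, and mock-treated wild-type cells. Each group had 2 samples in the labels, which state neither the animals behind a sample, nor their age or sex, nor which part of Ptpn1 was deleted. The table gives 1 signal per gene and group, in units of its own and read here as the mean of the group's samples, and all 4 columns have the same total and the same highest value. No spread between samples could therefore be had, no test was made, and every difference below is a description of these 4 means.

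Cells make cholesterol from acetyl-CoA by way of mevalonate, isoprenyl diphosphates, squalene and lanosterol. Fatty acids start from the same acetyl-CoA, which ATP citrate lyase draws from citrate, and are then elongated and desaturated. SREBP transcription factors switch on both pathways: the escort protein SCAP carries them from the endoplasmic reticulum to the Golgi for cleavage when sterols are low, and INSIG proteins hold them back when sterols are high. In macrophages this system is known to be turned down when cells take up cholesterol from their surroundings, and to respond to inflammatory and interferon signals.

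SREBPs are known to act with the factor NF-Y, which binds the letters CCAAT. Windows from 250 bases before to 50 bases after an annotated start were in the RefSeq table (GRCm38.p6) for 29 of the 37 genes. The letters CCAAT, read on either strand, were in a window of 24 of these 29 genes (82.8%), against 42.8% of the 9031 kept genes with a window and 37.4% of all 32851 windows. The 5 genes with no CCAAT in these windows were Acaca, Acat2, Elovl6, Fads2 and Scap. All 5 had a lower signal in IL-10-treated knockout than wild-type cells, as 47.4% of kept genes did. Their log2 ratios were -0.44, -0.20, -0.69, -0.40 and -0.16, in the same order. Scd1 and Scd2 were among the genes with no window. CCAAT was also in genes with a nearly equal or higher signal in IL-10-treated knockout cells, such as Mvk, Nsdhl, Ebp and Pmvk. A gene with several windows has more chances of a match, and a match is a set of letters, not a measured site. The stretches of 60 bases below, 5′ to 3′ on the gene's strand, were taken around the CCAAT nearest the start in the 6 genes whose signal was lower in IL-10-treated knockout cells by a log2 ratio beyond -0.2 and whose stretch was in none of their annotated transcripts. Capitals mark CCAAT or its reverse complement ATTGG.
Fasn, chr11:120824574-120824633, minus strand: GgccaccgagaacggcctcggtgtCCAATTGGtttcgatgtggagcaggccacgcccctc
Lss, chr10:76531516-76531575, plus strand: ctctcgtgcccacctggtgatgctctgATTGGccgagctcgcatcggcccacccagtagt
Mvd, chr8:122443423-122443482, minus strand: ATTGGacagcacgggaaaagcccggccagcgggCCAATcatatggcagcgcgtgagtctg
Sc5d, chr9:42264301-42264360, minus strand: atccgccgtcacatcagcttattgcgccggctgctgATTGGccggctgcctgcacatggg
Insig1, chr5:28071169-28071228, plus strand: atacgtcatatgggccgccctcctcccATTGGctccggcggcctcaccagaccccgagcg
Srebf2, chr15:82147107-82147166, plus strand: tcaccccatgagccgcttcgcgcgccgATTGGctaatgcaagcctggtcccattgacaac
In Fasn the match overlaps its own reverse complement, and the capital that opens the stretch ends another ATTGG. Of the other motifs sought, the Sp1 letters GGGCGG were in 79.3% of the 29 genes against 70.1% of kept genes. The E-box CACGTG was in 6 of 29 (20.7% against 12.1%), and the STAT letters TTCNNNGAA were in 2 of 29, Ebp and Ggps1 (6.9% against 8.27%). The letters TCACNCCAC, a core of the sterol regulatory element, were in 1 of 29, Acsl1 (3.45% against 1.36%). All were sought on both strands.

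**Figure D1:**
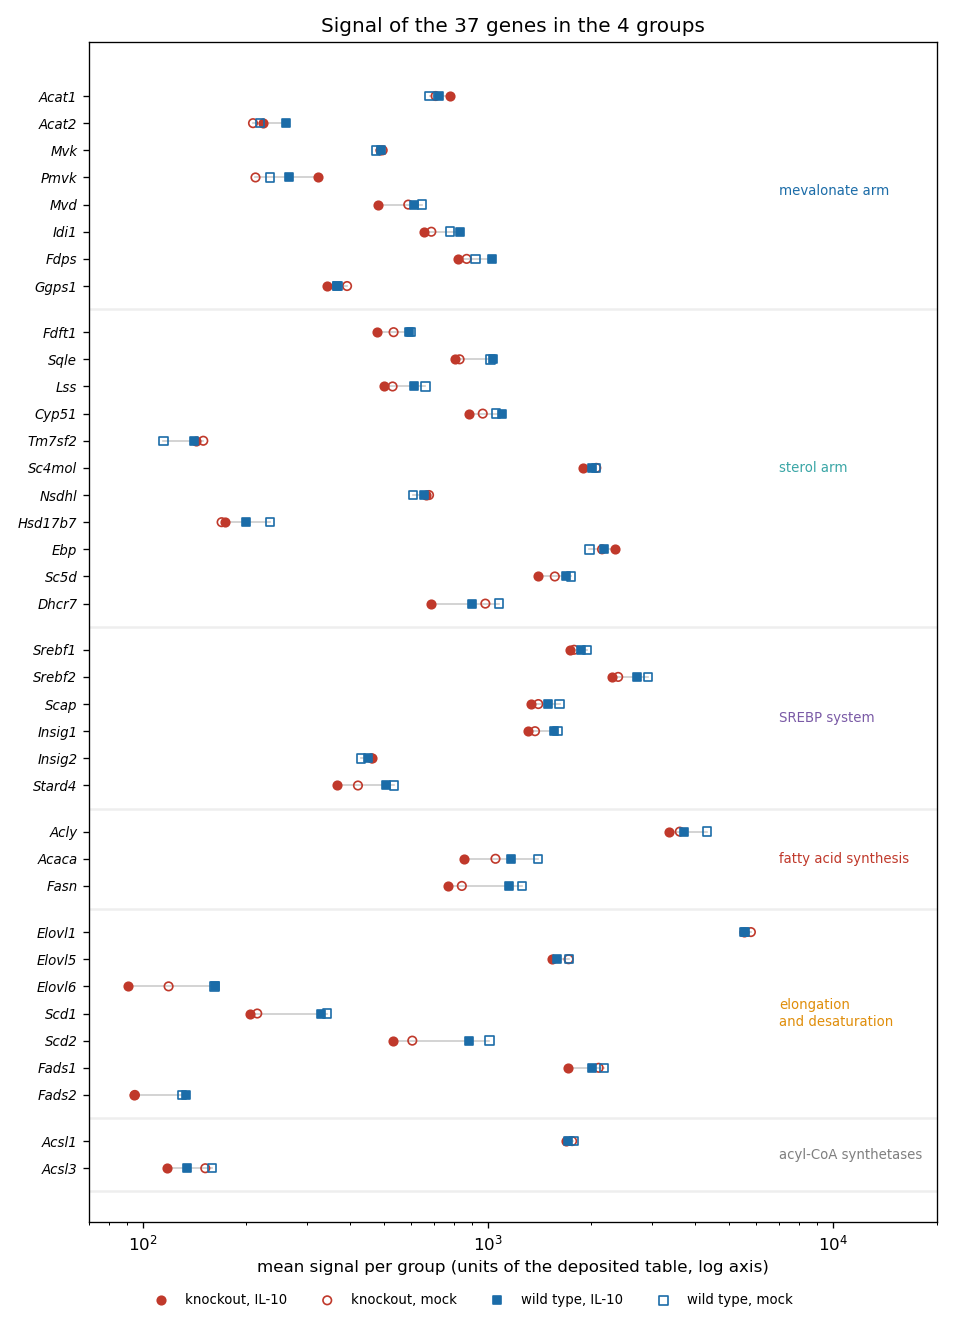
Mean signal of each gene (log axis, units of the deposited table) in knockout cells (red circles) and wild-type cells (blue squares), filled with IL-10 and open under mock treatment, with genes grouped by role. For Scd1, Scd2, Fasn and Acaca both knockout points lie left of both wild-type points, whereas the points of Mvk, Elovl1 and Acsl1 lie close together.

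The genes lay at mean signals of 113.25 to 5603 units. Between genes, levels were compared on the scale of signal per kb of the longest GENCODE transcript, in mock-treated wild-type cells. The elongase gene Elovl1 had the highest level on that scale, 3053 units per kb, followed by Ebp, the sterol isomerase, at 1131 and Acly, the citrate lyase, at 978. At the other end were Elovl6, at 27.1 units per kb, the sterol reductase gene Tm7sf2, at 37.3, and the acyl-CoA synthetase gene Acsl3, at 40.3. The regulators Insig1, Srebf2 and Srebf1 stood at 591, 575 and 452 units per kb. Neighbours in this order, such as Mvk (199.6) and Acat1 (199.4), cannot be separated without a spread. The longest transcript need not be the one the cells express, and no source states whether the signal is already scaled for length.

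The comparison of knockout with wild type asks whether loss of the phosphatase went with a different level of these genes. With IL-10, 31 of the 37 genes (83.8%) had a lower signal in the knockout, against 47.4% of all kept genes, and their median log2 ratio was -0.22, against 0.01 for all kept genes. Under mock treatment 28 of 37 (75.7%) were lower in the knockout, against 45.8% of kept genes, with medians of -0.13 and 0.02. Log2 ratios here have 1 ppm of the column total added to each mean, which makes ratios of low genes smaller. The set was chosen with earlier results of these data known, so these counts are a description and not independent evidence. With IL-10, 3 genes were at least 1.5-fold lower in the knockout (by 0.585 or more on the log2 scale), which 0.991% of kept genes were, and none was 1.5-fold higher, which 1.8% were. Under mock treatment 2 were at least 1.5-fold lower, against 1.4% of kept genes, and none was higher, against 1.43%. At a lower limit of 0.32 on the log2 scale, 11 of 37 genes (29.7%) were lower in the knockout with IL-10, against 5.61% of kept genes, and 8 of 37 (21.6%) under mock treatment, against 7.35%. With the trend over transcript length described below subtracted, these counts were 10 of 37 (27%) with IL-10, against 4.87%, and 4 of 37 (10.8%) under mock treatment, against 5.22%. In 21 of the 37 genes (56.8%) both knockout means lay below both wild-type means, which was so for 23% of kept genes.

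The desaturase genes Scd1 and Scd2 differed by 1.5-fold under both treatments. Scd2 (ENSMUSG00000025203; mm9 chromosome 19, 44368166 to 44381354, plus strand), a stearoyl-CoA desaturase, which makes oleate and palmitoleate, had 533.5 units in IL-10-treated and 605 in mock-treated knockout cells, against 884 in IL-10-treated and 1012.5 in mock-treated wild-type cells. Both knockout means lay below both wild-type means, with log2 ratios of -0.70 with IL-10 and -0.72 under mock treatment, or 39.6% and 40.2% less signal. Its neighbour and close paralog Scd1 (ENSMUSG00000037071; mm9 chromosome 19, 44468941 to 44482199, minus strand) had 204.5 units in IL-10-treated and 215 in mock-treated knockout cells, against 329.5 in IL-10-treated and 342.5 in mock-treated wild-type cells. Its log2 ratios were -0.62 and -0.61, again with no overlap of the genotypes' means. Reads of such close copies can be split between them, and the notes name RSEM, which divides shared reads by estimated probabilities, without stating its role, so the division between Scd1 and Scd2 is uncertain. Of all kept genes, 0.4% had a lower ratio than Scd2 with IL-10 and 0.6% a lower ratio than Scd1.

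Of the other desaturases and the elongases, Fads2, which opens the synthesis of polyunsaturated fatty acids, had 94.5 units in IL-10-treated and 95 in mock-treated knockout cells, against 133.5 and 130 units in wild-type cells with IL-10 and under mock treatment. Its log2 ratios were -0.40 and -0.36. Fads1, which acts later in the same pathway, was closer between genotypes, with ratios of -0.22 with IL-10 and -0.05 under mock treatment. Elovl6, the elongase that takes palmitate to stearate, had 90.5 units in IL-10-treated and 119 in mock-treated knockout cells, against 162 and 161.5 units in wild-type cells with IL-10 and under mock treatment. The knockout mean was lower under either treatment, but more so with IL-10 (log2 ratios of -0.69 and -0.37), at signals where the pseudocount weighs most. Elovl5 and Elovl1, elongases of polyunsaturated and of very long chains, had ratios between -0.04 and 0.07.

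The enzymes that make the fatty acid chain were lower too. Fasn, the fatty acid synthase (ENSMUSG00000025153; mm9 chromosome 11, the table's row covering 120669878 to 120671015, minus strand), had 770 units in IL-10-treated and 842 in mock-treated knockout cells, against 1150.5 and 1256 units in wild-type cells with IL-10 and under mock treatment. Its log2 ratio was -0.56 under each treatment, just short of the 1.5-fold limit, with Scd1 just past it. Acaca, acetyl-CoA carboxylase, which makes the malonyl-CoA that Fasn uses, had 854.5 units in IL-10-treated and 1054 in mock-treated knockout cells, against 1170.5 and 1399 units in wild-type cells with IL-10 and under mock treatment. The ratios were -0.44 and -0.40, and again both knockout means lay below both wild-type means. Acly stood closer, at -0.14 and -0.26. Over the 10 genes of chain synthesis, elongation and desaturation the median log2 ratio was -0.42 with IL-10 and -0.37 under mock treatment, and 10 and 9 of them were below 0 (47.4% and 45.8% of kept genes were). With the length trend subtracted the medians were -0.36 and -0.24. The acyl-CoA synthetases Acsl1 and Acsl3, which activate fatty acids, had ratios of -0.02 and -0.16 with IL-10 and of -0.01 and -0.06 under mock treatment.

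**Figure D2:**
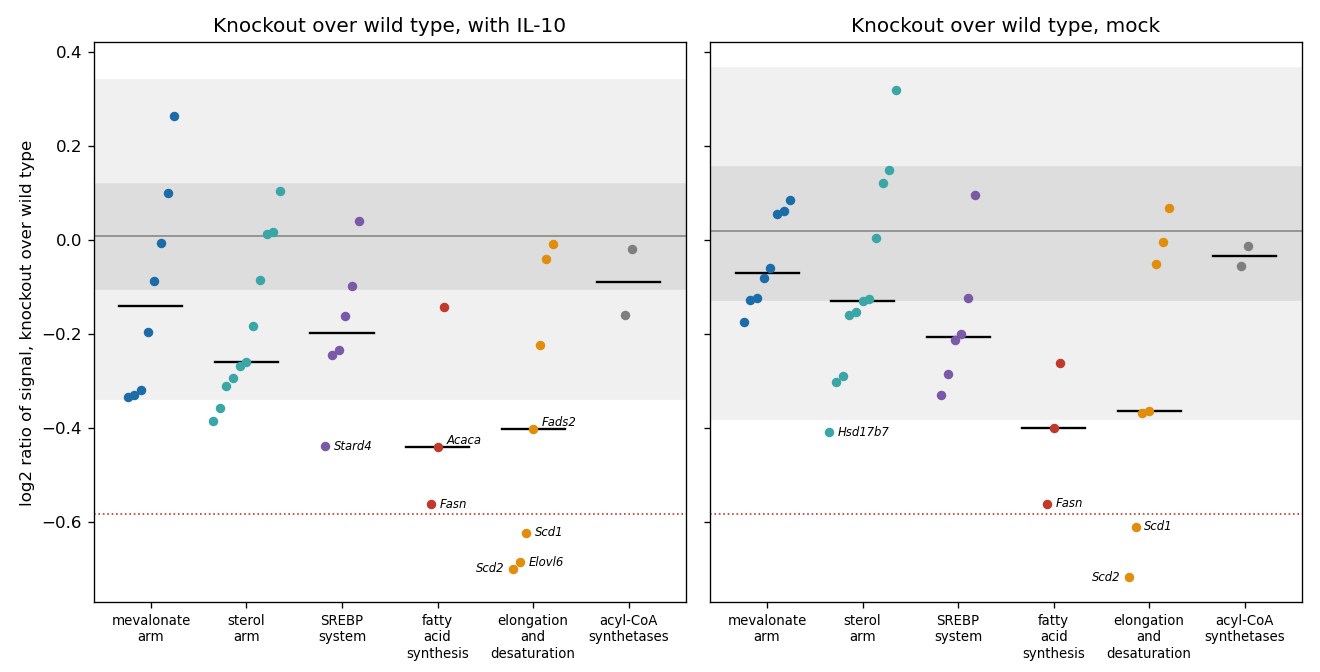
Log2 ratio of signal, knockout over wild type, with IL-10 (left) and under mock treatment (right). Points are genes by role, black bars are group medians, the dark and light grey bands hold the middle 50% and 90% of all kept genes with the grey line at their median, and the red dotted line marks 1.5-fold lower. Scd1 and Scd2 lie below the dotted line in both panels and Elovl6 with IL-10 alone.

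Sterol enzymes were lower by less: over the 11 genes from squalene synthase on, the median was -0.26 with IL-10 and -0.13 under mock treatment. Of these 11 genes 8 and 7 were below 0 (72.7% and 63.6%, against 47.4% and 45.8% of kept genes), and with the length trend subtracted the medians were -0.16 and -0.12. Sqle, squalene epoxidase, which oxidizes squalene at a rate-limiting step, had 804.5 units in IL-10-treated and 829.5 in mock-treated knockout cells, against 1039 and 1019.5 units in wild-type cells with IL-10 and under mock treatment (log2 ratios of -0.36 and -0.29). Lss, lanosterol synthase, had 502.5 and 530.5 units in knockout cells with IL-10 and under mock treatment, against 611 and 660.5 in wild type, with ratios of -0.27 and -0.30. For both enzymes the knockout means lay below the wild-type means. Cyp51, the lanosterol demethylase, had 882 units in IL-10-treated and 968 in mock-treated knockout cells, against 1101 and 1058 in wild-type cells with IL-10 and under mock treatment (-0.31 and -0.12). Dhcr7, which carries out the last reduction to cholesterol, had 685.5 and 985 units in knockout cells with IL-10 and under mock treatment, against 903.5 and 1080 in wild type. Its ratio was -0.39 with IL-10 and -0.13 under mock treatment, and here the mock-treated knockout mean lay above the IL-10-treated wild-type mean.

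Fdft1, squalene synthase, had ratios of -0.29 and -0.16 with IL-10 and under mock treatment, and Sc5d, the sterol desaturase, -0.26 and -0.15. Hsd17b7, a keto reductase of sterol demethylation, was lower mainly under mock treatment, with ratios of -0.18 and -0.41. Sc4mol and Nsdhl, the oxidase and dehydrogenase of the same demethylation, had ratios of -0.08 and 0.01 with IL-10 and of 0.00 and 0.15 under mock treatment. Ebp was slightly higher in the knockout under each treatment (0.10 and 0.12), and Tm7sf2 had 0.02 with IL-10 and 0.32 under mock treatment, at a low signal of 115 to 150 units.

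In the mevalonate arm, 3 of the later enzymes had ratios near those of the sterol enzymes with IL-10. Mvd, which decarboxylates mevalonate diphosphate, had 482 units in IL-10-treated and 589 in mock-treated knockout cells, against 613 and 646 in wild-type cells with IL-10 and under mock treatment. Idi1, the isopentenyl diphosphate isomerase, had 656 and 687 units in knockout cells with IL-10 and under mock treatment, against 834 and 779 in wild type. Fdps, which makes farnesyl diphosphate, had 822 and 869.5 units in the knockout against 1032 and 921.5 in wild type. For these 3 genes both knockout means lay below both wild-type means, and the ratios with IL-10 were close together (-0.33, -0.33 and -0.32). Under mock treatment they were smaller in size, at -0.13, -0.17 and -0.08. The kinases Mvk and Pmvk, the prenyl synthase Ggps1 and the thiolases Acat1 and Acat2 showed no common direction, with ratios of -0.20 to 0.26 with IL-10 and -0.12 to 0.09 under mock treatment. Over the 19 genes of the mevalonate and sterol arms, 14 were below 0 with IL-10 (73.7%, against 47.4% of kept genes) and 12 under mock treatment (63.2%, against 45.8%), with medians of -0.20 and -0.12.

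Among the regulators, Srebf2, whose product is the main driver of sterol synthesis, had 2297.5 units in IL-10-treated and 2389.5 in mock-treated knockout cells, against 2707.5 and 2920.5 in wild-type cells with IL-10 and under mock treatment (log2 ratios of -0.23 and -0.29). Insig1, itself a target of SREBPs, had 1311 and 1372 units in knockout cells with IL-10 and under mock treatment, against 1558.5 and 1594.5 in wild type (-0.24 and -0.21). In Srebf2, Insig1 and Scap (-0.16 and -0.20) both knockout means lay below both wild-type means. Stard4, a carrier of cholesterol between membranes and a target of SREBPs, differed most in this group, at 366 and 421 units in the knockout with IL-10 and under mock treatment, against 506 and 536 in wild type (-0.44 and -0.33). Srebf1, linked mainly to fatty acid synthesis, stood near -0.10 and -0.12, and Insig2 was slightly higher, at 0.04 and 0.10.

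The ratios with IL-10 and under mock treatment come from separate columns. In all, 27 of 37 genes (73%) were lower in the knockout under both treatments, against 34.5% of kept genes. At the limit of 0.32, 7 of 37 (18.9%) were lower under both, against 3.47% of kept genes: Stard4, Acaca, Fasn, Scd1, Scd2, Elovl6 and Fads2. The 5 genes higher in the knockout under both treatments were Nsdhl, Ebp, Tm7sf2, Acat1 and Insig2. Across the table the genotype ratio was lower for longer transcripts, with a Spearman's rho of -0.40 with IL-10 and -0.53 under mock treatment across 11222 genes, and Fasn (10050 bases) and Acaca (9513 bases) have some of the longest transcripts of the set. With the running median over transcript length subtracted, the median of the 37 genes was -0.18 with IL-10 and -0.16 under mock treatment. Of the 37 genes, 32 and 31 were then below 0, against 49.9% of kept genes under each treatment. The 7 genes lower by the limit of 0.32 under both treatments became 3 (Scd1, Scd2 and Fads2), or 8.11%, against 2.75% of kept genes. Those lower by 1.5-fold became 2 with IL-10, against 0.766% of kept genes, and 1 under mock treatment, against 0.838%. Scd2 then stood at -0.63 and -0.61 and Scd1 at -0.57 and -0.54, whereas Fasn stood at -0.42 and -0.30, Acaca to -0.31 and -0.17 and Lss to -0.16 and -0.12.

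**Figure D3:**
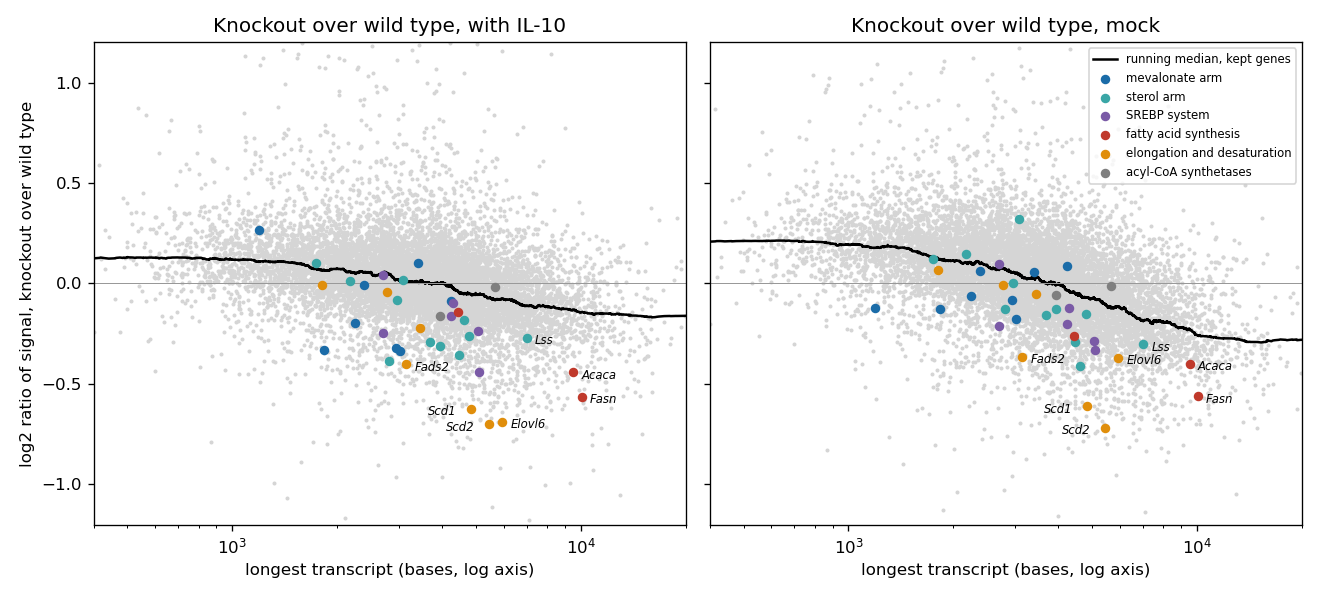
Log2 ratio of signal, knockout over wild type, against the length of the longest transcript (log axis), with IL-10 (left) and under mock treatment (right). Grey points are all kept genes within the axes, the black line is their running median, and coloured points are the genes by role. The line falls with length in both panels, and Scd1, Scd2 and Fads2 lie well below it.

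The cells were checked by markers. Ptpn1 had 5391.5 and 3836.5 units in knockout cells with IL-10 and under mock treatment, against 6736 and 4960.5 in wild type, so its signal was not absent, and a value outside the deleted part would not check the genotype. All 7 macrophage markers were listed, with a median genotype ratio of -0.05 with IL-10 and 0.06 under mock treatment. Of these, 1 was at least 1.5-fold apart, Fcgr1, an Fc receptor gene that was higher in the knockout (0.61 and 0.79), and Itgam had ratios of -0.21 and -0.38; both were named after their values were seen. All 8 markers of mesothelial cells and fibroblasts, which line and support the peritoneum, were listed too. Their summed signal was 18549.5 units in IL-10-treated and 18764.5 in mock-treated knockout cells, against 29797 and 31087 in wild-type cells with IL-10 and under mock treatment. Of the 8 markers, 5 were at least 1.5-fold lower in the knockout under each treatment. Most of the sum came from the matrix genes Col1a1, Col1a2, Col3a1 and Dcn. The mesothelial marker Msln was nearly equal between genotypes, with log2 ratios of 0 with IL-10 and -0.01 under mock treatment. These markers, too, were named after their values were seen. The 5 monocyte markers were all at least 1.5-fold higher in the knockout under each treatment, with sums of 2892 and 2249.5 units in the knockout with IL-10 and under mock treatment against 1443 and 991 in wild type. The 4 listed mast cell markers summed to 491.5 and 438.5 units in the knockout against 317.5 and 290 in wild type, with IL-10 and under mock treatment. Markers of neutrophils, eosinophils, B cells, T cells and dendritic cells summed to at most 156 units each in any group. The part of these cell types in the lower lipid synthesis signal was not tested. None of the 6 adipocyte markers (Adipoq, Plin1, Cfd, Lep, Cidec and Retn) was listed. In such bulk RNA, fewer cells of a type and less RNA per cell cannot be told apart.

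The comparison of IL-10 with mock treatment asks how these genes responded to the cytokine. On the scale with 1 ppm added, none of the 37 genes was 1.5-fold higher or lower with IL-10 in either genotype. Without that addition 1 gene was, Pmvk in the knockout, with a plain ratio of 1.52. Among kept genes 2.32% were 1.5-fold higher and 0.807% lower in the knockout, and 1.54% were higher and 0.412% lower in wild type. In knockout cells 31 of 37 were lower with IL-10, against 53.8% of kept genes, and their median ratio was -0.07 on the log2 scale. Of the same genes in wild-type cells 22 were lower, against 49.5% of kept genes, and the median was -0.04.

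Dhcr7 was the gene most lowered with IL-10 in the knockout, at 685.5 units with IL-10 against 985 under mock treatment (log2 ratio -0.51), and it was lower in wild type as well, at 903.5 against 1080 units (-0.25). Acaca was lower in both genotypes, by ratios of -0.29 for the knockout and -0.25 for wild type. So was Acsl3 (-0.31 and -0.20), at signals of 117.5 to 159 units. With the length trend subtracted, Acaca stood at -0.23 and -0.11 and Acsl3 at -0.29 and -0.20. Pmvk, phosphomevalonate kinase, went the other way, at 323.5 units with IL-10 against 212.5 under mock treatment in the knockout (0.55), and at 265 against 234 units in wild type (0.16). In all, 21 of the 37 genes (56.8%) were lower with IL-10 in both genotypes, against 35.5% of kept genes, and 5 (13.5%) were higher in both, against 31.2%. The 5 were Pmvk, Ebp, Acat1, Acat2 and Insig2.

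**Figure D4:**
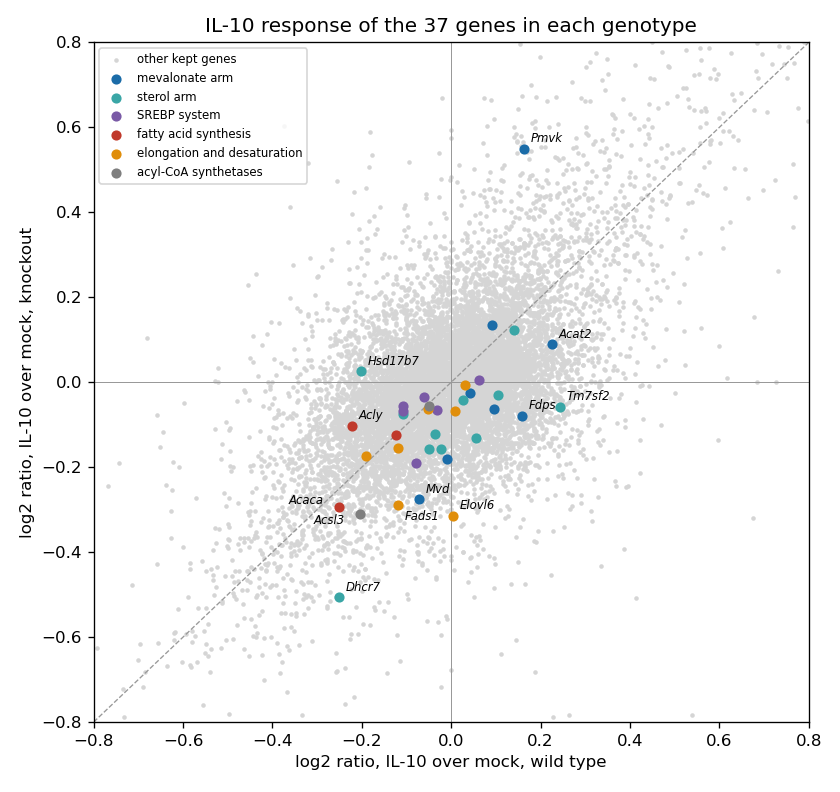
Log2 ratio of signal, IL-10 over mock treatment, in knockout cells (vertical axis) against wild-type cells (horizontal axis). Coloured points are the genes by role, grey points other kept genes within the axes, and the dashed line marks equal ratios. Most coloured points lie below the dashed line, with Dhcr7 lowest and Pmvk highest on the vertical axis.

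Whether the IL-10 response differed between genotypes was described by the difference of these log2 ratios, knockout minus wild type. It was below 0 for 28 of 37 genes, against 51.2% of kept genes, with a median of -0.07, and no gene differed by 1.5-fold, against 0.5% of kept genes higher and 0.263% lower. In 10 genes the IL-10 ratio was below 0 in the knockout and above 0 in wild type (27%, against 18% of kept genes). They were Sqle, Idi1, Fdps, Cyp51, Nsdhl, Mvk, Tm7sf2, Elovl1, Elovl6 and Fads2. Some of these signs rest on ratios close to 0, which cannot be told from no change without a spread. Elovl6 in wild type had 162 units with IL-10 against 161.5 under mock treatment. Fads2 in the knockout had 94.5 against 95. Fdps had 822 units with IL-10 against 869.5 under mock treatment in the knockout, and 1032 against 921.5 in wild type, a difference of -0.24. Dhcr7 differed by -0.26, Elovl6 by -0.32 and Tm7sf2 by -0.30, and Pmvk by 0.39. Over the mevalonate and sterol arms 15 of 19 genes were below 0 with a median of -0.13, and over fatty acid synthesis, elongation and desaturation 8 of 10 were, with a median of -0.04. For Scd1, Scd2 and Fasn the difference was between -0.01 and 0.02, and their genotype ratios were nearly equal under both treatments. The difference also varied with transcript length across the table (Spearman's rho of 0.26 across 11222 genes). With that trend subtracted 29 of the 37 genes were below 0, against 49.8% of kept genes, with a median of -0.06.

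Other genes of these pathways were taken from lists written for this description, again with earlier results known. Ratios of these lists were not corrected for transcript length. Of the 11 listed genes of SREBP processing none was 1.5-fold apart between genotypes, with medians of -0.09 with IL-10 and -0.07 under mock treatment. Of 19 kept genes among the other fatty acid genes none was 1.5-fold apart between genotypes. Their medians were -0.04 with IL-10 and 0.05 under mock treatment. Of the 19 genes, 13 and 7 were below 0, against 47.4% and 45.8% of kept genes. Gpam, which opens the synthesis of triglycerides, had the largest difference with IL-10, at -0.52, and -0.39 under mock treatment. The 12 genes that use isoprenyl diphosphates for ubiquinone, dolichol and prenylated proteins had medians of 0.04 with IL-10 and 0.12 under mock treatment, with 5 and 2 of the 12 below 0, against 47.4% and 45.8% of kept genes, and none was 1.5-fold apart.

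Oxysterols, oxidized forms of cholesterol, are known to hold SREBPs back and to activate the LXR receptors. With 1 ppm added, none of the 11 genes of this list was 1.5-fold apart between genotypes, with medians of 0.01 under each treatment. Without that addition Ch25h was, under mock treatment. Ch25h, an interferon-induced enzyme that makes such an oxysterol, was low, at 84 and 71.5 units in the knockout with IL-10 and under mock treatment, against 68 and 44 in wild type (0.23 and 0.47). Abca1, the cholesterol exporter and an LXR target, had 5016.5 and 4674.5 units in the knockout against 6058 and 6542 in wild type (-0.27 and -0.48). The trend over transcript length was not subtracted from this ratio or the others of the list. Abcg1, Mylip and Lpcat3, also LXR targets, had ratios of -0.13 to 0.12, the LXR genes Nr1h2 and Nr1h3 -0.09 to 0.13, and Soat1, which esterifies cholesterol, 0.21 and -0.09. The oxysterol enzymes Cyp27a1, Cyp7b1 and Hsd3b7 had ratios of -0.18 to 0.11.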

How the data were processed

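RNA of 8 samples in 4 groups of 2 was sequenced after TRIzol extraction, per the labels' protocols. The submitters' processing notes name RSEM, Bowtie and mm9, with no version or role for any of them. How the values were normalized and which annotation was used is not given in the sources used here. In the table, as deposited, each value is a normalized expression signal, 1 per gene and group, read here as the mean of 2 samples although no source says so. It is named as CPM, but each column sums to 26705598, and all values are multiples of 0.5. Equal totals and highest values are what quantile normalization before averaging would leave, but no source states it; ratios would then reflect shifts in rank within a library. Equal totals remove any difference in depth or overall RNA, and depth per sample is unknown, so no interval or floor is given. Coordinates of genes are the table's, in mm9.

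Log2 ratios were computed in Python 3.11.15 with pandas 2.3.3, with 1 ppm of the column total added, over genes with a mean of at least 1 ppm, for 5 comparisons. Code was tested on simulated data. Genes were counted at 1.5-fold, and also at a log2 ratio of 0.32. All 37 members could be named; of the other lists, at most 3 genes per comparison, all oxysterol genes, and Ptpn1. Members and lists were chosen with earlier results of these data known. Transcript lengths are the longest per gene in GENCODE M21, found for all 37 members and used for lengths alone. Alternatives were other pseudocounts, filters and limits, centring, summed rows and a length correction. A list of other sterol pathway genes is not reported here.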

Additional observations from a re-analysis of the deposited data

How the results depend on the processing

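No paired analysis was possible because the table has 1 mean per group and no value per replicate, and for the same reason no replicate was left out in turn and limma was not run. Medians over the 37 genes kept their direction and moved by less than 0.1 (log2) under every alternative run. Counts at 1.5-fold were 3 and 2 lower in the knockout with IL-10 and under mock treatment. They became 1 and 1 with a pseudocount of 4 ppm, 11 and 8 at a limit of 0.32 (log2), 0 and 0 at 2-fold, and 2 and 1 with the length trend subtracted. For IL-10 over mock treatment in the knockout, 1 gene was higher with a pseudocount of 0.25 ppm, and 1 was higher and 1 lower at that lower limit. For the difference of responses 1 was higher at that lower limit. Of the values of single genes under alternatives, 892 stayed within 0.1 and 33 moved further, 19 of them with the length trend subtracted and 13 with a pseudocount of 4 ppm, and no value of a gene at least 1.5-fold apart changed sign. No difference reported here has a replicate check, and the depth behind it is unknown.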

Other observations

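Among the other fatty acid genes, the 3 with the largest IL-10 ratios in size in each genotype were Dgat2, Lpin1 and Fads3. Dgat2 had the largest, at 47 units with IL-10 against 16.5 under mock treatment in the knockout. In wild type it had 49 against 13 units. Its log2 ratios were 0.77 and 0.93, at low signals where the pseudocount weighs most. Lpin1, a phosphatidate phosphatase of triglyceride synthesis, had 772.5 units with IL-10 against 1129 under mock treatment in the knockout, and 885 against 1307 in wild type (log2 ratios of -0.53 and -0.55). Fads3, a relative of Fads1 and Fads2, was higher with IL-10, at 249 against 141.5 units in the knockout and 257 against 180.5 in wild type (0.71 and 0.45).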
